A study of Mus musculus with 2 samples.

Results

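A set of 10 genes of hepatic glucose output and of the insulin signal that restrains it was followed in mouse liver RNA sequencing from 1 control library and 1 knockout library. The 10 genes were taken by symbol from a table of 21936 genes. They were the gluconeogenic enzyme genes Pck1, G6pc, Fbp1 and Pcx, the transcriptional control genes Ppargc1a and Foxo1, and the insulin signal genes Insr, Irs1, Irs2 and Akt2. Each symbol matched 1 gene, and all 10 passed the expression minimum used below. The control library came from the liver of hnRNPK flox/flox mice. The knockout library came from hnRNPK flox/flox mice that also carried Alb-Cre, a Cre recombinase driven by the albumin promoter and so active in hepatocytes. The floxed alleles are shared by both groups. The labels used here give no age, sex, feeding state, time of collection or number of mice per library. The series title names the groups wild type and hnRNPK-MKO, and the column headings name them WT and KO, whereas the sample labels give the floxed genotypes used here.

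The liver makes glucose from lactate, alanine and glycerol when blood glucose is low. Pyruvate carboxylase (Pcx) and phosphoenolpyruvate carboxykinase (Pck1) carry pyruvate around the irreversible last step of glycolysis, fructose-1,6-bisphosphatase (Fbp1) reverses the phosphofructokinase step, and glucose-6-phosphatase (G6pc) releases free glucose. Glucagon acts through cyclic AMP and the factor CREB to raise Ppargc1a, Pck1 and G6pc transcription. Insulin binds its receptor (Insr), which phosphorylates the adaptors Irs1 and Irs2. They recruit phosphoinositide 3-kinase, the kinase Akt2 is activated, and Akt phosphorylates the forkhead factor Foxo1, which then leaves the nucleus. Foxo1 in the nucleus activates Pck1, G6pc and Igfbp1, and it also activates Irs2, so that insulin lowers the message of one of its own adaptors.

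The promoters of the 2 classic hormone-regulated enzyme genes, Pck1 and G6pc, and of the members with the highest and the lowest knockout-to-control ratio, Irs2 and Foxo1, are shown because the results turn on these genes. The sequences are from RefSeq on the GRCm38.p6 build, 250 bases before to 50 bases from the annotated start site, on the gene's own strand. Capitals mark matches, on either strand, to the core of the cyclic AMP response element (TGACGT), a forkhead site (GTAAACA) or the insulin response sequence core (TGTTTT).
Pck1, chr2:173152823-173153122, plus strand: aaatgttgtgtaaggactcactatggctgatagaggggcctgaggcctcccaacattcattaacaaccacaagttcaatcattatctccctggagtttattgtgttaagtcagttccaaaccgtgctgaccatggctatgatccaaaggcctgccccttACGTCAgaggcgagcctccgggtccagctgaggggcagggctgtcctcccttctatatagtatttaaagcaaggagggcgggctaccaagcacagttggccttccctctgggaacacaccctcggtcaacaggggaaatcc
G6pc, chr11:101367466-101367765, plus strand: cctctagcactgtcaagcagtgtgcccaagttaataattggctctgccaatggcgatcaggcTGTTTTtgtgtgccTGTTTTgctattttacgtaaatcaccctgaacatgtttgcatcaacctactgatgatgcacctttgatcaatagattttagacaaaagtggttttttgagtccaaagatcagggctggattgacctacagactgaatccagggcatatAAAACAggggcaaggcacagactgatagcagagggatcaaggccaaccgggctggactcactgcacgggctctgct
Irs2, chr8:11008880-11009179, minus strand: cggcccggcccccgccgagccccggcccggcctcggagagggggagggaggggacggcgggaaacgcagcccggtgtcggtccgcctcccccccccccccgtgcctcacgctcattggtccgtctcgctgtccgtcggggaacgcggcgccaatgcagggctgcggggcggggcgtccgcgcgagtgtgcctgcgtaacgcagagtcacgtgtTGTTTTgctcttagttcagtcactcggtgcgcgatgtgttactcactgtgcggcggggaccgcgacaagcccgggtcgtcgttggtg
Foxo1, chr3:52268087-52268386, plus strand: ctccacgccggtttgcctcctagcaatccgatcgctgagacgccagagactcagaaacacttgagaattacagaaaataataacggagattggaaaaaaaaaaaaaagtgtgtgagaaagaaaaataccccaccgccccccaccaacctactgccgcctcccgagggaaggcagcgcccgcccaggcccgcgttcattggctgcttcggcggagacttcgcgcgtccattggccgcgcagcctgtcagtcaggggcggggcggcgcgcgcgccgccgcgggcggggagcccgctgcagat
The Pck1 window held 1 cyclic AMP core, whose first base lay 91 bases before the start site. The G6pc window held 3 insulin response cores, beginning 188, 174 and 26 bases before the start. The Irs2 window held 1 such core, 37 bases before its RefSeq start site. That start site lies outside the deposited gene, 471 bases upstream of the coordinate at which this minus-strand gene begins. The Foxo1 window held none of the 3 motifs. Promoters were found for 9 of the 10 genes, in 13 windows, Insr being the gene named only. Ppargc1a had a cyclic AMP core 50 bases before its start, and Irs1 had insulin response cores 111 and 32 bases before it. In 1 of its 4 windows Akt2 held 2 insulin response cores, while Fbp1 and Pcx held none of the motifs. None of the 13 windows held the forkhead letters GTAAACA. Other forms of forkhead site were not searched for, so their absence is not shown. Among 32851 promoter windows of this length, 7.51% held the cyclic AMP core, 3.65% the forkhead site and 22.1% the insulin response core on either strand. These matches describe letters in the windows and are not shown binding sites. No motif overlapped another of a different kind in these windows.

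Counted reads came to 12428975 in the control library and 12176239 in the knockout library. Hnrnpk, the floxed gene, had 2559 and 1411 reads, a knockout-to-control ratio of 0.567 (95% interval 0.531 to 0.605). There was 1 library per genotype, so no difference below has a replicate check and no p-value is given. The intervals are exact and cover counting error only. They were computed from each gene's share of reads per library after TMM scaling, a correction for composition. Evaluated genes, 9563 in number, reached at least 20 reads and FPKM 1 in one library or the other, FPKM being the read count scaled to gene length and to the library's counted reads. The size rule asked for a ratio of 2 or more, or of 0.5 or less, and 343 evaluated genes (3.59%) were past it. Hepatocyte markers were abundant in both libraries, with 9 evaluated of 10 listed, 0 past the rule and a median log2 ratio of 0.00. In a bulk sample, fewer cells of a type and less RNA per cell cannot be told apart.

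None of the 10 genes was past the 2-fold rule. Most of them nevertheless differed by more than counting error: the interval of 8 of the 10 excluded a ratio of 1, as it did for 46.8% of all evaluated genes, an interval that narrows as reads increase. With a fold of 1.5, 3 genes were past the threshold, beside 11.4% of evaluated genes. Irs2 was the 1 gene higher in the knockout library (6.15% of evaluated genes were), and Foxo1 and Insr were the 2 lower (5.29%). Of the 10, 3 had a log2 ratio above 0 and 7 (70%) below, beside 54.0% of all evaluated genes below. Their median log2 ratio was -0.24, against -0.03 over all evaluated genes. After a correction for gene length, given below, these medians were -0.20 and 0.00.

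**Figure D1:**
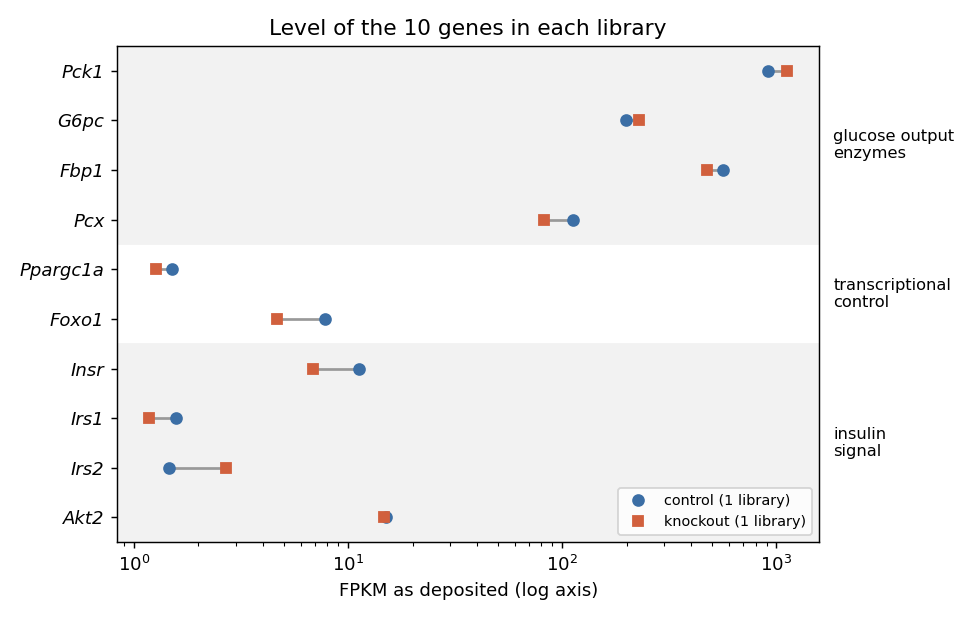
Deposited FPKM of the 10 genes on a log axis, with a circle for the control library and a square for the knockout library, grouped as output enzymes, transcriptional control and insulin signal. The enzyme genes lie between FPKM 81.9 and 1125, and all other genes between 1.18 and 15.1.

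The 4 enzyme genes were by far the most abundant, and they split into a pair that was higher and a pair that was lower in the knockout library. Pck1 (ENSMUSG00000027513, mm10 chromosome 2, 173153048 to 173159273, plus strand) had 38796 control and 46967 knockout reads, or FPKM 910 and 1125. It was the most abundant of the 10 in both libraries and ranked 54 and 47 among all genes by FPKM. Its ratio was 1.25 (95% interval 1.23 to 1.26), a log2 ratio of 0.32. G6pc (ENSMUSG00000078650, chromosome 11, 101367561 to 101377903, plus strand) had 5936 and 6745 reads, or FPKM 198 and 229. The enzyme gene of the last step thus stood on the same side as Pck1, with a ratio of 1.17 (1.13 to 1.21). Of all evaluated genes, 15.3% had a higher log2 ratio than Pck1 and 21.8% a higher one than G6pc.

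The other pair of enzyme genes stood on the other side. Fbp1 (ENSMUSG00000069805, chromosome 13, 62864753 to 62888282, minus strand) had 11905 and 9863 reads, or FPKM 563 and 476. Its ratio was 0.852 (0.830 to 0.875). It lies on the same chromosome as Hnrnpk, which spans 58391142 to 58403343. Pcx (ENSMUSG00000024892, chromosome 19, 4510472 to 4621752, plus strand), the entry enzyme of the pathway, had 6670 and 4738 reads, or FPKM 113 and 81.9. This was the furthest of the 4 enzymes from a ratio of 1, at 0.731 (0.704 to 0.758). Of evaluated genes, 9.72% had a lower log2 ratio than Pcx. The order of levels was Pck1, Fbp1, G6pc and Pcx in both libraries. The FPKM of Pck1 was 8.06 times that of Pcx in the control and 13.7 times in the knockout library. That quotient was 1.70 times as high in the knockout (1.64 to 1.77, from the odds ratio of the reads). The 4 enzymes together had a median log2 ratio of 0.00, which is the middle of values between -0.45 and 0.32. Their summed reads were 63307 and 68313, a sum set mainly by Pck1.

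The transcriptional control genes both had fewer knockout reads. Foxo1 (ENSMUSG00000044167, chromosome 3, 52268336 to 52353221, plus strand) had 837 and 489 reads, or FPKM 7.77 and 4.63. It had the lowest ratio of the 10 genes, 0.601 (0.536 to 0.673), and 2.64% of evaluated genes had a lower log2 ratio. The gene shares 674 exonic bases with the antisense gene Gm20402, which has no row in the table. Strand was not stated for the counting, so reads in that stretch cannot be told apart. Ppargc1a (ENSMUSG00000029167, chromosome 5, 51454250 to 51567726, minus strand), a coactivator induced by fasting, had 124 and 102 reads, or FPKM 1.51 and 1.27. At this depth its ratio of 0.846 was not separated from 1 (0.645 to 1.11).

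The insulin signal genes did not share a direction. Insr (ENSMUSG00000005534, chromosome 8, 3122061 to 3279617, minus strand) had 1930 and 1149 reads, or FPKM 11.3 and 6.86. The receptor gene was lower in the knockout library, with a ratio of 0.612 (0.569 to 0.659), and 2.96% of evaluated genes had a lower log2 ratio. Irs1 (ENSMUSG00000055980, chromosome 1, 82233101 to 82291416, minus strand) had 178 and 131 reads, or FPKM 1.57 and 1.18. It was also lower, with a wider interval (0.757, 0.599 to 0.954). Akt2 (ENSMUSG00000004056, chromosome 7, 27591552 to 27640826, plus strand), the kinase gene below the adaptors, had 1335 and 1273 reads, or FPKM 15.1 and 14.7. Its interval held a ratio of 1 (0.981, 0.908 to 1.06).

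Irs2 (ENSMUSG00000038894, chromosome 8, 10984681 to 11008458, minus strand) had 114 control and 208 knockout reads, or FPKM 1.45 and 2.70. It was the only one of the 4 insulin signal genes with more knockout reads. Its ratio of 1.88 was the highest of the 10 genes (1.49 to 2.38), and the interval includes a ratio of 2. Of evaluated genes, 2.99% had a higher log2 ratio. The adaptors were at similar levels in the control library, where the FPKM of Irs2 was 0.926 times that of Irs1, and Irs2 was 2.30 times Irs1 in the knockout library. The quotient was 2.48 times as high in the knockout library (1.78 to 3.46). Irs2 shares 162 exonic bases with the opposite-strand transcript 9530052E02Rik, which has no row in the table. Irs1 shares 2822 exonic bases with the opposite-strand gene Gm9747, which is listed at 0 reads in both libraries. No source used here states how reads in that stretch were assigned, so the level of Irs1 is uncertain.

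**Figure D2:**
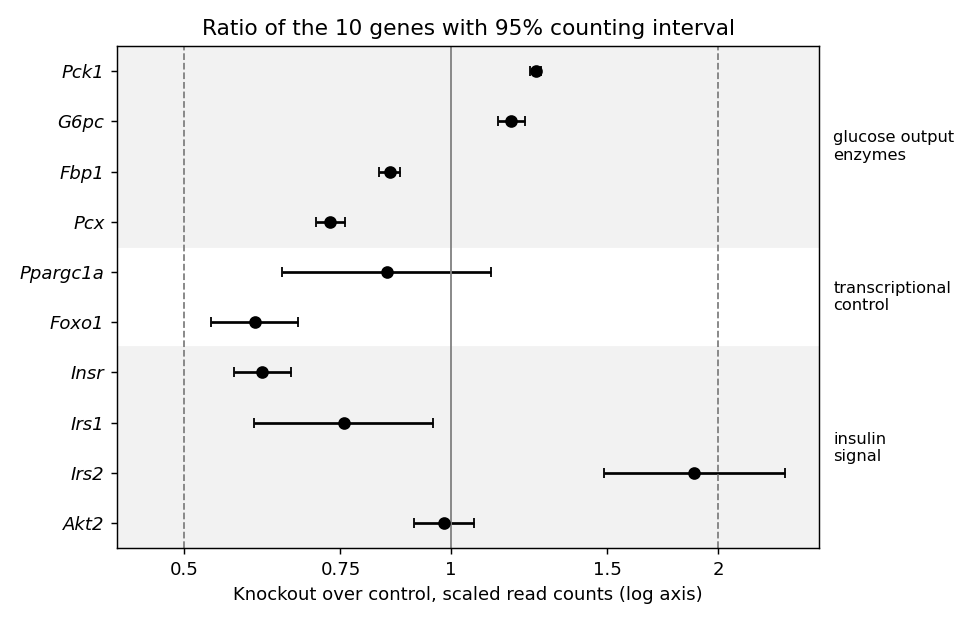
Knockout over control ratio of scaled reads for each of the 10 genes on a log axis, with points for the ratio and bars for the exact 95% counting interval, and dashed lines at ratios of 0.5 and 2. Irs2 at 1.88 lies furthest to the right, Foxo1 at 0.601 and Insr at 0.612 furthest to the left, and the bars of Akt2 and Ppargc1a cross 1.

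In the order of FPKM, Pck1, Fbp1, G6pc and Pcx were followed by Akt2, Insr and Foxo1 in both libraries. The 3 least abundant genes were Irs1, Ppargc1a and Irs2 in descending order in the control, and Irs2, Ppargc1a and Irs1 in the knockout library. Between these 3, the control levels of 1.57, 1.51 and 1.45 were close. Summed over the 4 insulin signal genes there were 3557 control and 2761 knockout reads, a difference set mainly by Insr (1930 and 1149).

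Set against each other, the enzyme genes did not move as a block relative to the insulin signal genes. The median log2 ratio was 0.00 for the 4 enzymes and -0.21 for the 4 insulin signal genes, a difference of 0.21 that is smaller than the range within either group. The insulin signal genes ranged from -0.71 for Insr to 0.91 for Irs2. After a correction for gene length the difference was -0.016. Each enzyme was then divided by each insulin signal gene, which needs no scaling between libraries. Of the 16 quotients, 8 were higher in the knockout library by an interval above 1, 6 were lower by an interval below 1, and 2 had intervals that held 1. The 16 quotients share genes and are not independent. No share over other gene pairs was computed to set beside these counts. The single-gene counting interval alone excluded 1 for 46.8% of all evaluated genes.

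The direction differed between denominators. Over Insr and Irs2 it was fixed by the single-gene ratios, since Insr (0.612) was below all 4 enzymes and Irs2 (1.88) above them. All 4 enzymes had a higher quotient over Insr in the knockout library, from 1.19 times for Pcx (1.10 to 1.30) to 2.03 times for Pck1 (1.89 to 2.19). Over Irs2 all 4 had a lower quotient, from 0.664 times the control quotient for Pck1 (0.523 to 0.838) to 0.389 times for Pcx (0.306 to 0.493). Over Akt2 the change was 1.27 times for Pck1 and 1.19 times for G6pc, but 0.869 times for Fbp1 and 0.745 times for Pcx. Over Irs1 it was 1.64 times for Pck1 and 1.54 times for G6pc, and the intervals of Fbp1 and Pcx held 1. The quotient of Foxo1 over Insr, in FPKM, was 0.688 in the control and 0.675 in the knockout library, a change of 0.981 times whose interval held 1 (0.857 to 1.12).

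**Figure D3:**
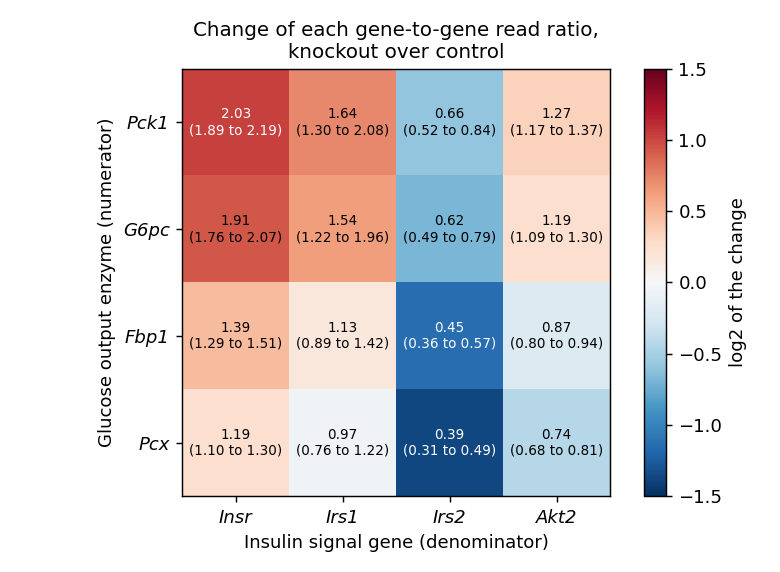
Change of the read quotient of each glucose output enzyme (rows) over each insulin signal gene (columns), knockout over control, with the 95% counting interval printed in each cell and colour for the log2 of the change. The Insr column holds values from 1.19 to 2.03 and the Irs2 column values from 0.389 to 0.664.

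The evaluated other genes of glucose output stayed within 2-fold. The list covered transport, pyruvate entry, transaminases, malate and lactate dehydrogenases and glycerol use, and 20 of its 22 genes were evaluated. None was past the rule, and the median log2 ratio was 0.03. Slc37a4, which carries glucose 6-phosphate to glucose-6-phosphatase, had 3994 and 2574 reads and the lowest ratio of the list (log2 ratio -0.59). Its partner G6pc was on the other side of 1, and the quotient of G6pc over Slc37a4, a pair chosen after its values were seen, was 1.76 times as high in the knockout library (1.66 to 1.87). The glucose transporter gene Slc2a2 was at -0.43, the alanine transaminase genes Gpt2 and Gpt at -0.41 and -0.39, and the aquaglyceroporin gene Aqp9 at 0.02. Pck2, the mitochondrial form of the carboxykinase, was under the minimum at 28 and 57 reads, a ratio of 2.09 (1.31 to 3.42). The muscle bisphosphatase gene Fbp2 had 0 reads in both libraries.

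Among 36 evaluated genes of glucagon, cyclic AMP and transcriptional control, of 39 listed, 1 was past the rule and it was higher in the knockout library, beside 2.48% of evaluated genes higher and 1.11% lower. It was Sik1, a salt-inducible kinase that CREB induces and that holds back the coactivator Crtc2, with 147 and 296 reads (ratio 2.07, 1.69 to 2.54). This interval includes ratios under 2. The forkhead gene Foxo3, a relative of Foxo1, had 1594 and 961 reads (log2 ratio -0.69), close to the Foxo1 value of -0.73. The liver factor Foxa2 was at -0.64, the coactivator gene Ppargc1b, related to Ppargc1a, at -0.58, and the heme receptor gene Nr1d1 at 0.76. The glucagon receptor gene Gcgr was at -0.23, Creb1 at -0.31, Crtc2 at -0.13 and Klf15 at 0.02. Of the 36, 27 (75%) were below 0, beside 54.0% of all evaluated genes. The median was -0.22, or -0.16 after the correction for gene length. The Sik1 call was lost when FPKM values with 0.5 added were compared and under higher expression minima.

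In the insulin pathway from receptor adaptors to Akt and mTOR, 22 of 27 listed genes were evaluated and 0 were past the rule. The median was -0.11, or -0.03 after the correction for gene length. With that correction the median over all evaluated genes was 0.00. Some of the 22 moved above 0, among them Mtor (from -0.06 to 0.05) and Rptor (from -0.12 to 0.06). Without it, 18 of the 22 (81.8%) were below 0, beside 54.0% of all evaluated genes. The lowest were Pik3r1, the main regulatory subunit of phosphoinositide 3-kinase, with 2201 and 1391 reads (log2 ratio -0.62), and Pdpk1, the kinase that activates Akt, with 692 and 444 reads (-0.60). The other regulatory subunit gene Pik3r2 was at -0.40, the catalytic subunit gene Pik3ca at 0.00 and Akt1 at 0.12. The adaptor gene Sh2b2 was highest at 0.52, with 50 and 70 reads. Igf1r, the receptor related to Insr, was under the minimum with 52 and 45 reads. A list of inhibitors of the insulin signal also held insulin clearance genes such as Ceacam1. Of its 27 genes 22 were evaluated and 0 were past the rule. The median of that list was -0.04, or 0.07 after the correction for gene length. Grb14, an adaptor that inhibits the insulin receptor kinase, was the highest of them, with 532 and 824 reads (ratio 1.59, 1.43 to 1.78). The phosphatase gene Inpp5k was at -0.37, Ptpn1 at 0.03 and Tsc2 at 0.00, while Ahsg, a secreted inhibitor of the receptor kinase, was at 0.40 and Ceacam1, which promotes insulin clearance in liver, at 0.37.

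**Figure D4:**
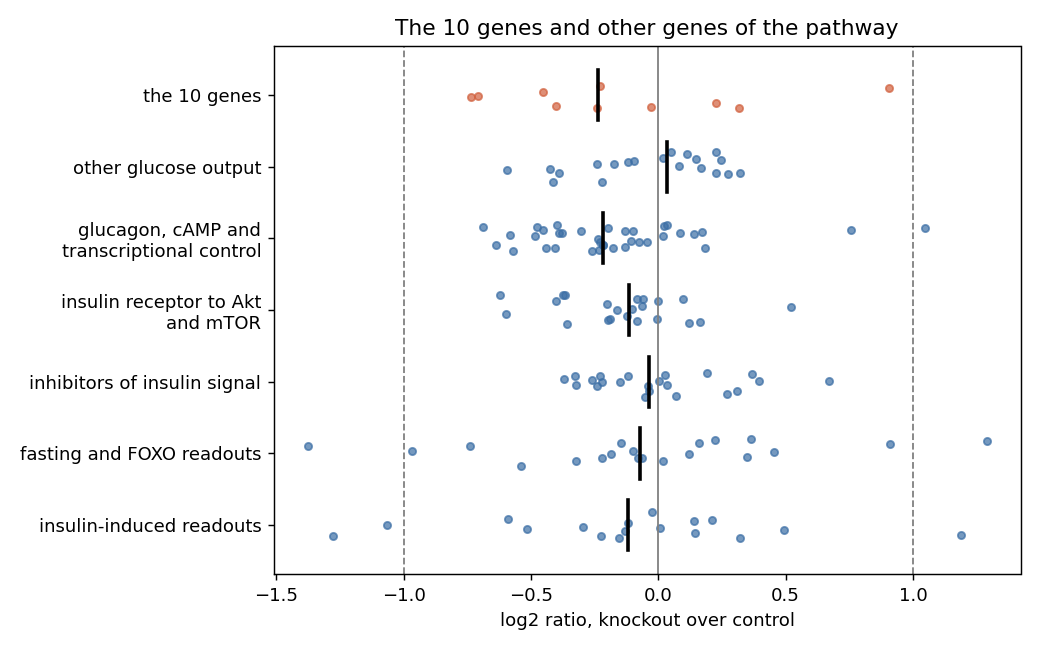
Log2 ratio of knockout over control for every evaluated gene of each list, with 1 point per gene, a black bar for the list's median and dashed lines at a 2-fold difference; points are spread vertically for legibility. The medians run from -0.24 for the 10 genes to 0.03 for the other glucose output genes.

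Genes whose messages are used to read the fasting and insulin state went both ways. Of 20 evaluated fasting and forkhead readouts, of 23 listed, 1 was higher and 1 lower by the rule, beside 2.48% and 1.11% of all evaluated genes. The median of the list was -0.07, against -0.03 over all evaluated genes, or -0.06 against 0.00 after the correction for gene length. Of the 20, 9 had a log2 ratio above 0 and 11 (55%) below, beside 54.0% of all evaluated genes below. Igfbp1, a secreted binding protein that insulin represses through Foxo1, had 346 and 823 reads (ratio 2.45, 2.16 to 2.78). Irs2, Pck1 and G6pc, set beside it after the values were seen, were on the same side. Ppp1r3c, which brings protein phosphatase 1 to glycogen, had 2701 and 1011 reads (log2 ratio -1.38). Just within the rule were the stress-response gene Gadd45g, with 1058 and 526 reads (-0.97), and the deiodinase gene Dio1, with 1098 and 2009 reads (0.91). Lpin1, a phosphatidate phosphatase and coactivator, had 23066 and 13420 reads (-0.74), and Sesn3, a forkhead target, was at -0.54. Nearer 0 were Pdk4 (46 and 57 reads, 0.35), the aminotransferase gene Tat (-0.06), Cpt1a (-0.32) and Klf15 (0.02).

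Of 17 evaluated insulin-induced genes, of 18 listed, 1 was higher and 2 lower by the rule, beside 2.48% and 1.11% of all evaluated genes. The median of the list was -0.12, against -0.03 over all evaluated genes, or 0.015 against 0.00 after the correction for gene length. Lower were Ppp1r3b, the main glycogen-targeting subunit of protein phosphatase 1 in liver, with 7613 and 3052 reads (log2 ratio -1.28), and Pklr, liver pyruvate kinase, with 4650 and 2161 reads (-1.06). Higher was Egr1, an immediate early factor, with only 29 and 65 reads (ratio 2.31, 1.47 to 3.70), a call lost under the same settings as that of Sik1. Srebf1, the lipogenic factor induced by insulin, was at 0.14, Fasn at -0.12, Elovl6 at -0.59 and Gpam at 0.01.

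Gene length moved with these ratios. Over all evaluated genes the log2 ratio was lower for longer genes, and the running median over 400 genes of neighbouring length was 0.11 at the length of Fbp1 (1702 bases) and -0.19 at that of Insr (13746 bases), the shortest and the longest of the 10. With that median subtracted, Insr was at -0.52, Foxo1 at -0.59, Irs2 at 0.98, Pck1 at 0.30, G6pc at 0.14, Fbp1 at -0.34 and Pcx at -0.43 on the log2 scale. Akt2 changed side, from -0.03 to 0.10. The median of the 4 insulin signal genes became -0.08 and that of the 4 enzymes -0.10.

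**Figure D5:**
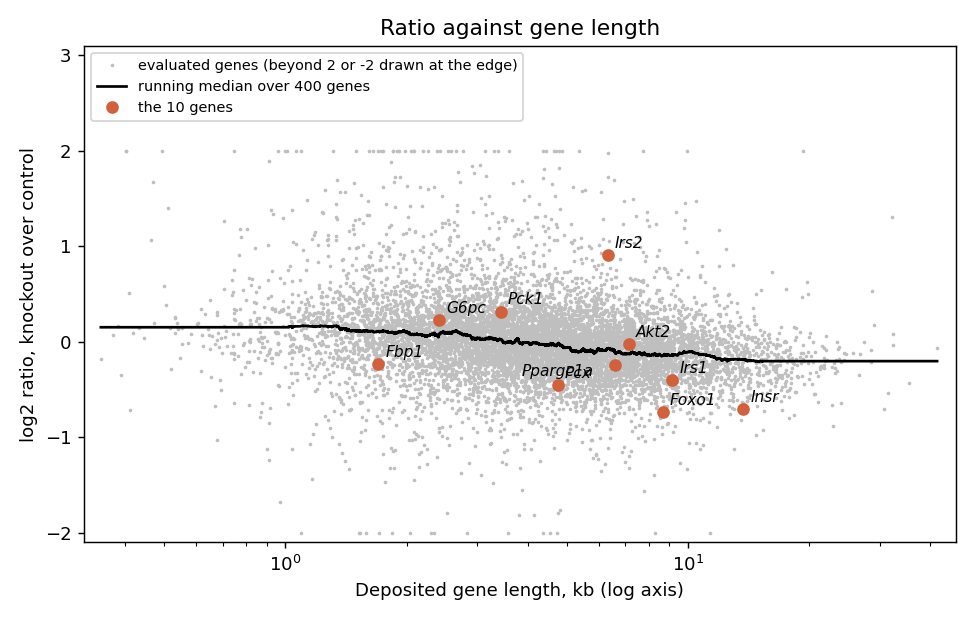
Log2 ratio of knockout over control against deposited gene length in kilobases on a log axis, with grey points for evaluated genes, a black line for the running median over 400 genes and coloured points for the 10 genes. Irs2 lies 0.98 above the line, and Foxo1 and Insr lie 0.59 and 0.52 below it.

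Markers of other cells also differed between the libraries. Beside the counts that follow, 2.48% of all evaluated genes were higher and 1.11% lower by the rule. Of 10 ductular epithelial markers 7 were evaluated and 5 were past the rule, all higher in the knockout library, and their summed FPKM over all 10 was 16.7 and 75.9, with none at 0 reads in either library. Of 10 stellate cell and fibroblast markers 3 were higher and 0 lower, with a summed FPKM of 38.7 and 55.8. With minima of FPKM 5 and 50 counts, which leave out most of these markers, 2 ductular and 0 stellate markers were higher. Macrophage markers had 0 of 10 higher and 1 lower, a call lost with those minima or with 0.5 added to FPKM (summed FPKM 161 and 150), and endothelial markers 0 of 10 past the rule (116 and 109). The adipocyte list had 1 higher and 1 lower of 3 evaluated (8.27 and 7.47), with Adipoq, Plin1 and Lep at 0 reads in the control and at 6, 6 and 1 in the knockout library. In the kidney, gut and pancreas list 0 of 2 evaluated genes were past the rule (51.4 and 38.2), and 6 of 10 genes, among them Ins1, Ins2 and Gcg, were at 0 in both libraries. Of 12 evaluated core clock and clock-controlled genes 0 were past the rule, with a median log2 ratio of -0.28 (summed FPKM 171 and 158 over the 15 listed). The part of these cell types and of clock phase in the ratios of the 10 genes was not tested.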

How the data were processed

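The authors deposited 1 table of read counts, in whole numbers, and of FPKM values for 21936 genes in both libraries, per the file headers. Bowtie2 2.4.2 and the mm10 genome are named in the submitters' processing notes. No source used here states the counting program, the strand setting or the treatment of reads with several matches. Deposited FPKM values were recomputed from counts, gene lengths and column totals and matched for all 21936 genes within a relative tolerance of 1e-06. The coordinates of the 10 genes were identical in GENCODE M21 on the same build. Column headings WT and KO were matched to the samples without and with Alb-Cre.

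Column totals were multiplied by TMM factors (edgeR 4.0.16 in R 4.3.3). Log2 ratios (knockout over control) were taken after adding 0.5 to the scaled counts, and ratios carry a Clopper-Pearson 95% interval. Quotients between genes carry a conditional exact interval of the odds ratio, or its large-sample form where both genes exceeded 3000 control reads. Quotients outside the 16 enzyme and insulin signal pairs were chosen after their values were seen. These intervals are for counting error alone and treat reads as independent. Sequenced reads with no molecular identifiers can be copies of 1 molecule, so the intervals can be too narrow even for that error. DESeq2 1.42.0 gave size factors for an alternative. The remaining steps used scipy 1.17.1, pandas 2.3.3 and numpy 2.4.6 in Python 3.11.15, and the calculation was tested on simulated data. Named genes were the 10, Hnrnpk, and in each pathway list those past the rule, the 4 with the largest log2 ratios in size and the 1 nearest 0. Other listed genes that are named were chosen after their values were seen. The 10 genes, lists and size rule were chosen with earlier results of these data known. Some listed genes are not reported here by name. Several lists share genes, among them Klf15, Nr1d1, Cry1, Cry2 and Per2.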

Additional observations from a re-analysis of the deposited data

How the results depend on the processing

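No paired analysis was possible because each genotype had 1 library. Under DESeq2 size factors, column totals and 5 added counts, no count past the rule moved by over 1.5 times, and 0 of the 10 genes was past it under every setting tried except the lower fold. With a fold of 1.5, 1 of the 10 was higher (Irs2, insulin signal) and 2 were lower (Foxo1 of transcriptional control and Insr of insulin signal, 1 each), other glucose output had 1 lower, glucagon and cyclic AMP control 2 higher and 2 lower, the receptor-to-Akt list 2 lower, the inhibitors 1 higher, the fasting readouts 2 higher and 3 lower, and all evaluated genes 588 higher and 506 lower. From FPKM with 0.5 added, 135 evaluated genes were higher and 52 lower, with 0 higher in the glucagon list (Sik1 lost) and 0 in the insulin-induced list (Egr1 lost). With minima of FPKM 5 and 50 counts, 69 were higher and 34 lower, and those 2 lists again had 0 higher. These minima left 7 of the 10 genes, without Irs1, Irs2 and Ppargc1a. The enzymes' median then exceeded that of the remaining insulin signal genes, only Insr and Akt2, by 0.36. With no filter, 1865 were higher and 988 lower, other glucose output had 1 higher (Pck2) and the fasting readouts 2 higher. The length correction put the enzymes' median at -0.10, their difference from the insulin signal genes at -0.016 and the insulin-induced median at 0.015, and 2 fasting readouts were lower. Over those of the 8 alternatives that evaluated them, the log2 ratio of Irs2 ranged from 0.71 to 0.98, that of Foxo1 from -0.75 to -0.59 and that of Insr from -0.72 to -0.52. Irs1, Irs2 and Ppargc1a rest on 102 to 208 reads per library, and their wide intervals limit them.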
